A study of Homo sapiens with 4 samples.

Results

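The 10 genes described here, TFF1, TFF3, GREB1, PDZK1, CA12, XBP1, AGR2, MYB, STC2 and SCUBE2, are known as estrogen-responsive genes of luminal breast epithelium. They were chosen by name, with earlier results of these data known. Every array probe whose RefSeq accession belonged to one of them was used, which gave 17 of the 41000 probes on the array. Total RNA of SkBr3 and BT474, both HER2-positive breast cancer cell lines, was labeled with Cy3 and hybridized to Agilent 4 × 44 K arrays, with 1 array for each of 4 samples. The parental SkBr3 and BT474 samples were labeled as given vehicle. SkBr3/Lap and BT474/Lap are lapatinib-resistant cells, each from 1 clone, selected with rising doses, up to 1 μM, of lapatinib, which blocks the kinases of EGFR and HER2. For immunoblots the study kept such cells in 1 μM lapatinib, so effects of the drug and of selection cannot be told apart here. All 4 were grown in DMEM/F12, and no label names estrogen or an antiestrogen, so the arrays compare levels of these genes and do not measure a response to the hormone. The labels number the SkBr3 clone 3 and the BT474 clone 6, whereas the study's text gives these numbers the other way round, so the clones are named here without them. With 1 array per sample there was no replicate check and no test, and every difference below is between 2 arrays.

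The estrogen receptor, encoded by ESR1, is a transcription factor that binds estradiol and then DNA, and in luminal breast cells it works with the pioneer factor FOXA1 and with GATA3. TFF1 was among the first of its targets to be identified, and GREB1 and the progesterone receptor gene PGR are among the genes most often read as signs of its activity. Several of the genes also belong to the secretory program of luminal cells and can be expressed where the receptor is absent. TFF1 and TFF3 encode secreted trefoil peptides found with mucins. AGR2 is a protein disulfide isomerase of the endoplasmic reticulum, and XBP1 is the transcription factor of the unfolded protein response that expands this compartment. CA12 is a carbonic anhydrase on the cell surface, and PDZK1 is a scaffold protein that holds membrane transporters. MYB is a transcription factor and proto-oncogene, GREB1 is a cofactor of the estrogen receptor, STC2 is a secreted glycoprotein and SCUBE2 is a secreted protein that helps to release Hedgehog ligands.

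The bases before the start sites of 4 of the genes are shown because these 4 had the largest changes among those with a promoter entry measured on all arrays: CA12, AGR2 and XBP1, which were lower in SkBr3/Lap, and PDZK1, which was higher in BT474/Lap. Each is the 250 bases before the start in RefSeq, build GRCh38.p14, written 5′ to 3′ on the strand of the gene, with capitals for matches to a single arm of the estrogen response element (GGTCA, or TGACC on the other strand) and, in XBP1, for a match to the endoplasmic reticulum stress response element (CCAAT and CCACG with 9 bases between them). The windows are chr15:63381847-63382096 for CA12, chr7:16805000-16805249 for AGR2, chr22:28800570-28800819 for XBP1 and chr1:145707401-145707650 for PDZK1, all on the minus strand.
CA12: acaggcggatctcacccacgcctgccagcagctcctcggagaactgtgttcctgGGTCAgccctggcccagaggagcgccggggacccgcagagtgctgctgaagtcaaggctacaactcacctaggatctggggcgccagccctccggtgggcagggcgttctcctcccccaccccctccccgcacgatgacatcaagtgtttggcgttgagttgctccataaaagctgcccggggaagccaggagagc
AGR2: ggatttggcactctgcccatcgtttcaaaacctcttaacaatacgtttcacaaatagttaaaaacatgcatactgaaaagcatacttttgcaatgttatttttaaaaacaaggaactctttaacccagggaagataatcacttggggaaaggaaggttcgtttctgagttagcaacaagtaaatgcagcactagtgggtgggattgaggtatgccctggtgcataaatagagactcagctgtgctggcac
XBP1: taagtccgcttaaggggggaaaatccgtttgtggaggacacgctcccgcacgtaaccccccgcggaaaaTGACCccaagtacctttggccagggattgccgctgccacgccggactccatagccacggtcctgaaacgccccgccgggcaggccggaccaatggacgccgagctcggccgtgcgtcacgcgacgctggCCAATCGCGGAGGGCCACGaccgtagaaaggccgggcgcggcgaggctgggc
PDZK1: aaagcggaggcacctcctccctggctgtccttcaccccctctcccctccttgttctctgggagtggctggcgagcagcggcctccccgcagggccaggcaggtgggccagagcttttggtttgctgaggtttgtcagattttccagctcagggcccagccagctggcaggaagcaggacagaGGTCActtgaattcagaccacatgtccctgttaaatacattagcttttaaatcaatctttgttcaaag
The full estrogen response element, GGTCA and TGACC with 3 bases between them, was found in 0 of the 7 genes with an entry, and in 0.0399% of the 35116 RefSeq windows of this length. A single arm lay 196 to 192 bases before the start of CA12, 181 to 177 bases before that of XBP1 and 68 to 64 bases before that of PDZK1, which made 3 of 7 genes, while 32.6% of all windows held one. The stress element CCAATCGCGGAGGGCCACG, 52 to 34 bases before the start of XBP1, was a match that 0.074% of all windows had. The forkhead motif TGTTTAC, searched on both strands like the others, was found in 1 of the 7 genes, MYB, and in 2.98% of all windows. No entry was found for TFF1, TFF3 and GREB1. A match describes letters in these windows and no binding was measured.

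A level is given below as the log2 of the processed signal minus that of the array's 75th percentile over all probes, so that 0 is that percentile and a difference of 1 is 2-fold. Probes were kept when their signal reached 100 on at least 1 array, which left 25927 probes and 16 of the 17 probes, for 9 of the 10 genes. A gene can thus pass only through the cells in which it is high, as GREB1 did through the BT474 cells. SCUBE2 did not pass, with a highest signal of 91.0. A gene with several kept probes is given by its main probe, the one with the highest mean signal. The scanner software marked 66.6% to 74.0% of probes on each array as well above background, and a signal without this mark gives only a limit. For 7 of the genes, 11 probes in all, the signal was well above background on all 4 arrays. SkBr3/Lap was hybridized on another slide than the other 3 samples, so slide and clone cannot be told apart in the SkBr3 comparison. The probes of one gene gave differences with a median SD of 0.19, 0.18 and 0.23 on the log2 scale in the 3 comparisons, over 3607 to 3766 genes with several probes, which holds no variation between cultures. In cells measured in bulk, fewer cells that express a gene and less RNA in each cell cannot be told apart.

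Among the trefoil genes, the log2 level of TFF1 was 3.12 in SkBr3 and 0.84 in SkBr3/Lap, against 7.89 in BT474 and 7.30 in BT474/Lap. That of TFF3 was 2.19 in SkBr3 and −4.78 in SkBr3/Lap, against 7.44 in BT474 and 6.98 in BT474/Lap. Both genes were thus highest in the BT474 cells, where parent and clone lay within 2-fold of each other, and lowest in SkBr3/Lap. The genes of protein folding in the secretory pathway differed less between the lines. The log2 level of AGR2 was 4.39 in SkBr3 and −2.03 in SkBr3/Lap, against 5.00 in BT474 and 4.47 in BT474/Lap. XBP1 was at 7.30 in SkBr3 and 4.63 in SkBr3/Lap, against 7.58 in BT474 and 6.86 in BT474/Lap. SkBr3, BT474 and BT474/Lap lay within 2-fold of each other for both, with SkBr3/Lap below them.

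**Figure D1:**
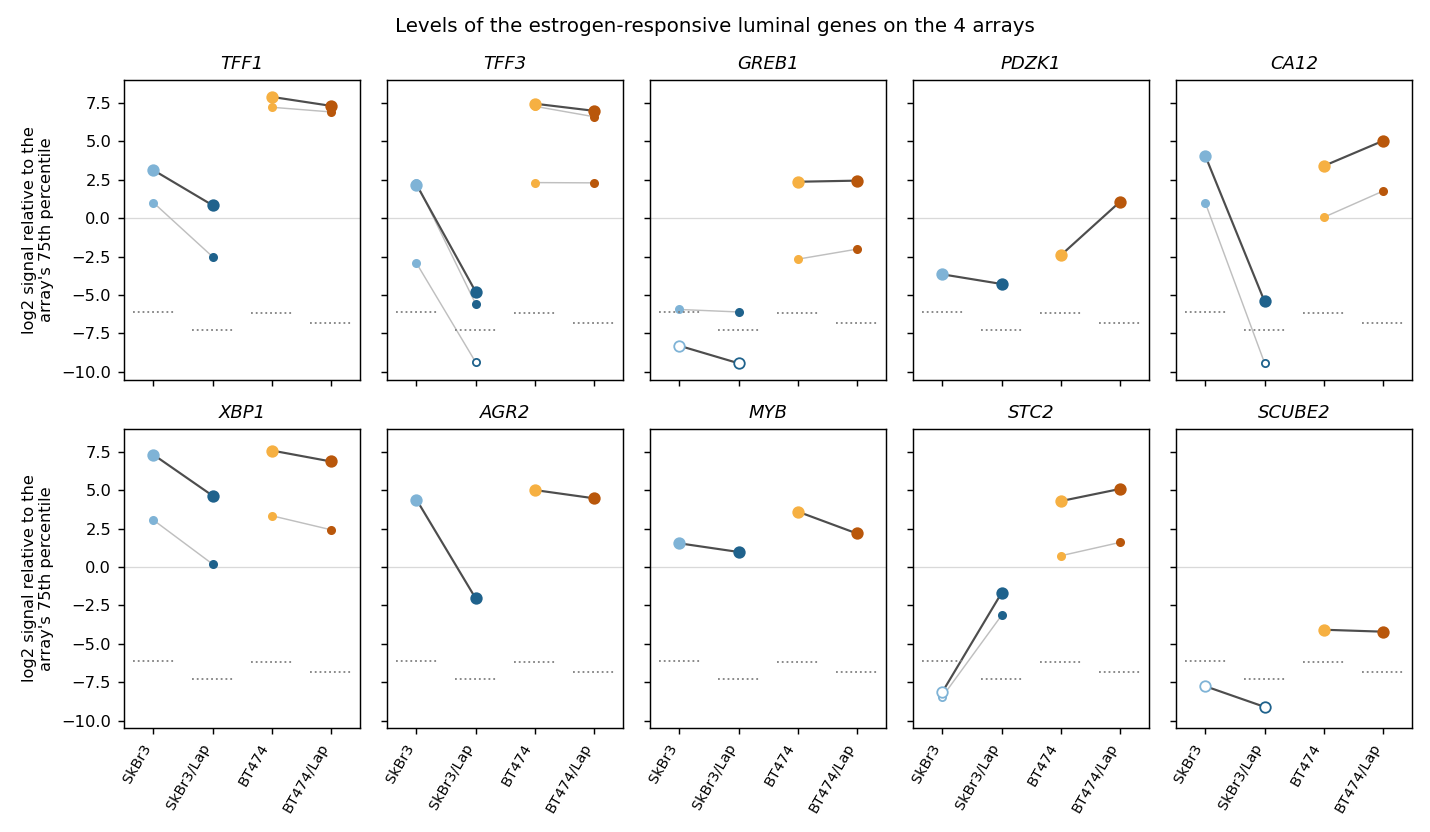
Levels of the 10 genes on the 4 arrays, as log2 signal relative to the array's 75th percentile. Large points are the main probe of a gene, small points its other probes, open points signals not well above background, and dotted lines the lowest signal so marked on each array. TFF3, CA12 and AGR2 dropped in SkBr3/Lap alone, PDZK1 was highest in BT474/Lap, and the main probes of GREB1, STC2 and SCUBE2 were not well above background in SkBr3.

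At the membrane, CA12 had levels of 4.04 in SkBr3 and −5.42 in SkBr3/Lap, against 3.39 in BT474 and 5.02 in BT474/Lap. On the linear scale its signals were 18276, 48.5, 12153 and 54682. CA12 therefore had its highest signal in one resistant clone and its lowest in the other, with the parental lines within 2-fold of each other. PDZK1 was at −3.65 in SkBr3 and −4.28 in SkBr3/Lap, against −2.42 in BT474 and 1.06 in BT474/Lap, which set BT474/Lap apart from the rest. RefSeq lists a pseudogene, PDZK1P1, on the same chromosome, and whether the PDZK1 probe also binds its transcript was not tested. Of the nuclear proteins, MYB was at 1.54 in SkBr3 and 0.98 in SkBr3/Lap, against 3.60 in BT474 and 2.18 in BT474/Lap. SkBr3 lay within 2-fold of SkBr3/Lap and of BT474/Lap, with BT474 above them. GREB1 was not well above background in SkBr3 and SkBr3/Lap and was at 2.37 in BT474 and 2.44 in BT474/Lap. The secreted STC2 was not well above background in SkBr3, was at −1.69 in SkBr3/Lap and reached 4.29 in BT474 and 5.07 in BT474/Lap. SCUBE2 was not well above background in the SkBr3 cells and was at −4.08 in BT474 and −4.21 in BT474/Lap.

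The resistant SkBr3 clone was compared with parental SkBr3 to ask how these genes stood in lapatinib-resistant cells of a line where ESR1 was not well above background. Secretory genes were far lower in the clone: the log2 difference was −6.96 for TFF3 (125-fold lower), −6.42 for AGR2 (85.6-fold lower), −2.67 for XBP1 (6.36-fold lower) and −2.28 for TFF1 (4.86-fold lower). CA12 fell by 9.45 on the log2 scale and was 701-fold lower. Among the 23945 probes measured in both samples, its difference was the 3rd lowest, that of TFF3 the 17th and that of AGR2 the 31st. STC2 went the other way and was at least 21.6-fold higher in the clone, a limit of 4.43 on the log2 scale that dropped to 3.01 after normexp background correction with quantile normalization. MYB and PDZK1 differed by less than 2-fold, at −0.56 and −0.63, and the main probe of GREB1 was not well above background in either sample.

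Of the 8 genes that could be compared, 5 were at least 2-fold lower and 1 was at least 2-fold higher, against 14.5% lower and 12.6% higher among the 25295 probes compared. Their median log2 difference was −2.48, with STC2 at its limit, and that of all these probes was −0.09. When the arrays were scaled on their medians, the probes past 2-fold split into 3880 higher and 2962 lower, in place of 3191 higher and 3660 lower, while the counts of 5 and 1 genes stayed. In the same comparison 4 of 5 basal epithelial markers, 2 of 4 mesenchymal and 2 of 3 endothelial ones were at least 2-fold higher. The mesenchymal marker FN1 was at least 2-fold lower. KRT5, COL3A1 and PECAM1, counted as higher, passed the filter only through SkBr3/Lap. The part of these markers in the result was not tested. Other probes gave differences in the same direction: −3.52 for TFF1, −7.88 for TFF3 and −2.86 for XBP1. The remaining TFF3 probe and the other CA12 probe were not well above background in the clone, with limits of at least 20.6-fold and 307-fold lower. For STC2 the other probe had a limit of at least 7.86-fold higher. The other GREB1 probe, a dim one, was measured in both SkBr3 samples at −5.94 and −6.10.

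**Figure D2:**
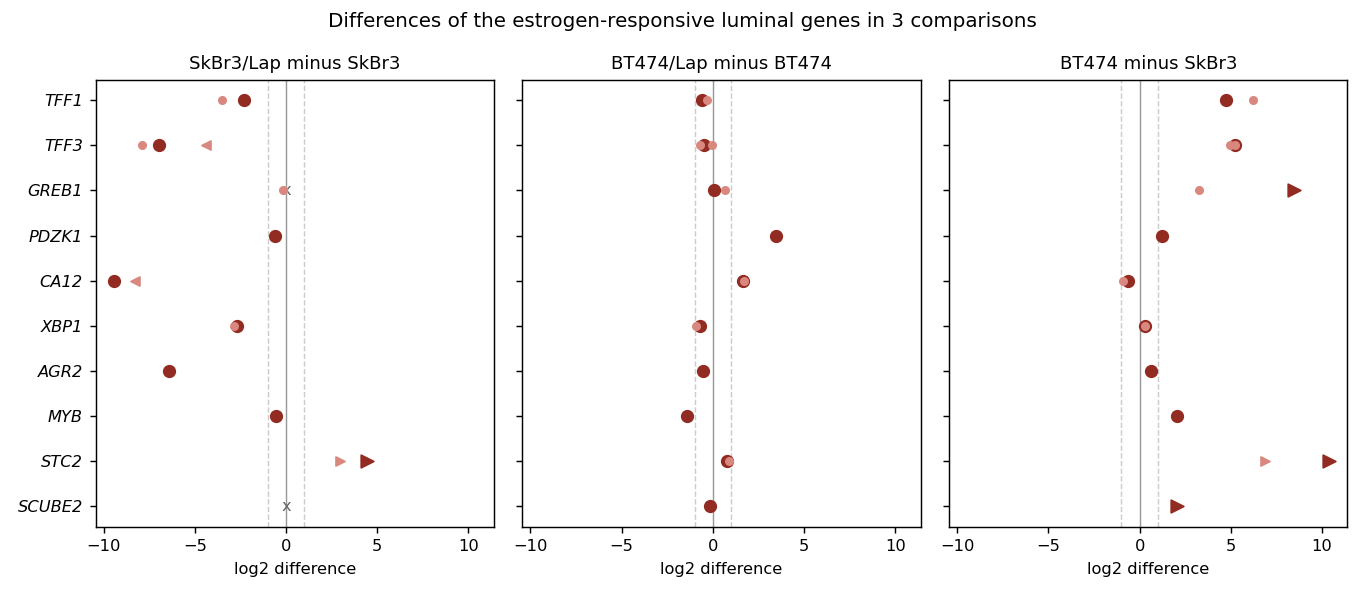
Log2 differences of the 10 genes in SkBr3/Lap against SkBr3, BT474/Lap against BT474 and BT474 against SkBr3. Dark points are the main probe of a gene, light points its other probes, triangles limits where 1 signal was not well above background, x 2 signals not well above background, and dashed lines 2-fold. CA12 lies at −9.45 in the SkBr3 comparison and at 1.63 in the BT474 comparison.

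In BT474/Lap the same genes were compared with parental BT474, a line in which ESR1, PGR and GREB1 were measured. PDZK1 was 11.2-fold higher in the clone, with a log2 difference of 3.48 that was the 120th highest of 24599 probes. CA12 was 3.10-fold higher, with a difference of 1.63. MYB was 2.69-fold lower, with a difference of −1.43. The trefoil genes and the secretory genes stayed within 2-fold of the parent, at −0.58 for TFF1, −0.46 for TFF3, −0.54 for AGR2 and −0.71 for XBP1, and so did GREB1 at 0.07, STC2 at 0.79 and the dim SCUBE2 at −0.13.

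Of the 9 genes compared, 2 were at least 2-fold higher and 1 was at least 2-fold lower, while 9.92% of the 25313 probes were higher and 5.00% lower. The median of the 9 differences was −0.46 and that of all probes −0.04. This median is not firm in sign, since it was 0.06 after normexp background correction with quantile normalization. Scaling on the array medians changed the split of all probes from 2510 higher and 1265 lower to 1865 higher and 2080 lower, with the gene counts as before. The other probe of CA12 gave 1.70, and the other probes of TFF1, TFF3, XBP1, STC2 and GREB1 lay between −0.91 and 0.87, within 2-fold. In each clone the change is read against its own parent, and whether the clones differ from each other was not tested.

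BT474 was set against SkBr3 to show where the genes stood before selection. Of the 9 genes compared, 6 were at least 2-fold higher in BT474 and 0 were lower, against 19.2% higher and 19.4% lower among 25436 probes. GREB1 passed the signal filter only through the BT474 cells, so its count among the 6 was fixed by that filter. TFF3 was 38.2-fold and TFF1 27.2-fold higher, the 87th and 132nd highest of 23476 measured probes. MYB was 4.18-fold and PDZK1 2.35-fold higher. GREB1 was at least 359-fold higher by its brighter probe, while the dim probe, measured in both lines, gave a log2 difference of 3.27, with its level in SkBr3 (−5.94) near the lowest one marked on that array (−6.12). STC2 was at least 1357.5-fold higher by its main probe and at least 115-fold by the other. The other probes of the trefoil genes gave 6.20 for TFF1 and 4.96 and 5.23 for TFF3. The parental lines were within 2-fold for CA12 at −0.64, XBP1 at 0.27 and AGR2 at 0.62, the genes that were lower in SkBr3/Lap along with the trefoil genes. The median of the 9 differences was 2.06, with 2 genes at their limits, and that of all probes was −0.04. SCUBE2, outside the filter, was at least 4.12-fold higher in BT474. This comparison uses the parental arrays of the others and is not independent of them.

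**Figure D3:**
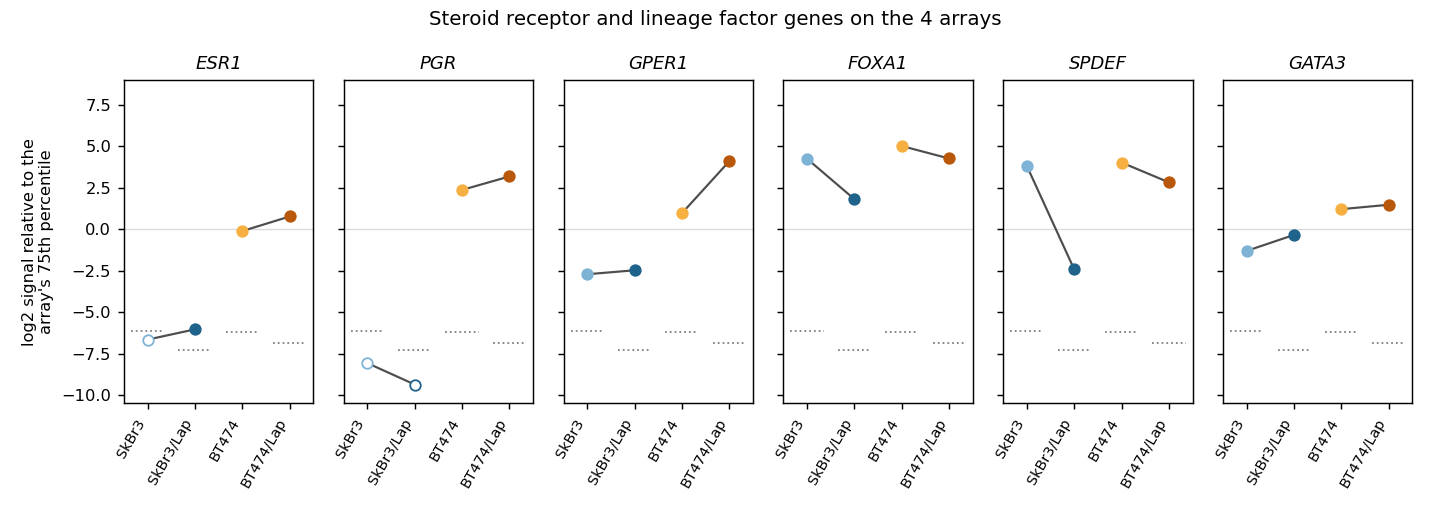
Levels of 6 genes for receptors and lineage factors on the 4 arrays, as log2 signal relative to the array's 75th percentile. Open points are signals not well above background and dotted lines the lowest signal so marked on each array. SPDEF and FOXA1 were lower in SkBr3/Lap than in SkBr3, while GPER1 was highest in BT474/Lap.

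The receptor genes separated the lines. ESR1 was not well above background in SkBr3, and was at −6.04 in SkBr3/Lap, near the lowest level so marked on that array (−7.28), at −0.12 in BT474 and at 0.76 in BT474/Lap. It was at least 64.2-fold higher in BT474 than in SkBr3 by its brighter probe and at least 2.10-fold by the other. PGR, a classical estrogen target, was not well above background in the SkBr3 cells and was at 2.36 in BT474 and 3.18 in BT474/Lap, a difference of 0.81 between these. ESR2, the gene of estrogen receptor beta, was not well above background in any sample. GPER1, which encodes a membrane receptor described to bind estrogen, was at −2.72 in SkBr3 and −2.48 in SkBr3/Lap, against 0.96 in BT474 and 4.09 in BT474/Lap, and was 8.77-fold higher in BT474/Lap than in its parent.

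Of the 11 receptor and cofactor genes compared in SkBr3/Lap, 9 stayed within 2-fold and 2, SPDEF and FOXA1, were lower. SPDEF, an ETS factor of secretory epithelium, was at 3.80 in SkBr3 and −2.43 in SkBr3/Lap, against 4.01 in BT474 and 2.82 in BT474/Lap. It was 74.8-fold lower in SkBr3/Lap and 2.29-fold lower in BT474/Lap. FOXA1 was at 4.24, 1.81, 5.01 and 4.26 in the same order, 5.40-fold lower in SkBr3/Lap, and its other probe gave a log2 difference of −2.48. GATA3 did not follow them, with a difference of 0.96 in SkBr3/Lap that passed 2-fold under another scaling (highest value 1.12) and of 0.26 in BT474/Lap. Of the 13 receptors and cofactors listed, 12 passed the filter and 11 could be compared in SkBr3/Lap. There 0 were higher and 2, FOXA1 and SPDEF, were lower, against 12.6% and 14.5% of all probes, with a median of 0.026. In BT474/Lap 1 of 12, GPER1, was higher and 1, SPDEF, was lower, against 9.92% and 5.00% of all probes. The median of the list was 0.048 and turned to −0.16 under another scaling. In BT474 against SkBr3 6 of 12 were higher and 0 lower, against 19.2% and 19.4% of all probes, with a median of 0.98. ESR1 and PGR, among the 6, passed the filter only through the BT474 cells. The higher genes included NCOA3, a receptor coactivator gene at 2.47 in SkBr3 and 4.47 in BT474, and NRIP1, a receptor corepressor gene that was 2.27-fold higher.

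A list of 32 other genes known to respond to estrogen, 30 of which passed the filter, had members past 2-fold in both directions in each clone. In SkBr3/Lap 6 of the 23 with a difference or a limit were at least 2-fold higher and 8 lower, against 12.6% and 14.5% of all probes. The median log2 difference of the list was −0.30. The highest difference between signals well above background in both samples, 5.58, was that of ABAT, a GABA transaminase gene at −5.03 in SkBr3 and 0.55 in SkBr3/Lap, against 1.62 in BT474 and 2.91 in BT474/Lap. HSPB8, a small heat shock protein gene chosen after its values were seen, was not well above background in SkBr3 and had a higher limit there, at least 59.4-fold. AREG, which encodes the EGFR ligand amphiregulin, was at −1.65, −3.81, 2.55 and 0.80, and so was 4.46-fold lower in SkBr3/Lap and 3.37-fold lower in BT474/Lap. ADORA1, an adenosine receptor gene, was at −0.58, −2.49, −4.79 and −4.30, 3.75-fold lower in SkBr3/Lap. In BT474/Lap 9 of 30 were higher and 4 lower, against 9.92% and 5.00% of all probes, with a median of 0.48. In BT474 against SkBr3 19 of 30 were higher and 4 lower, against 19.2% and 19.4% of all probes, with a median of 2.76. Several of the 19 passed the filter only through the BT474 cells, in which they were high. SUSD3, at −1.59 in SkBr3 and −2.25 in SkBr3/Lap, against 5.73 in BT474 and 5.82 in BT474/Lap, was 160-fold higher in BT474 than in SkBr3. Across the 5 scalings, BT474/Lap had 6 to 9 genes higher and 1 to 4 lower, and SkBr3/Lap 5 to 7 higher and 5 to 8 lower.

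**Figure D4:**
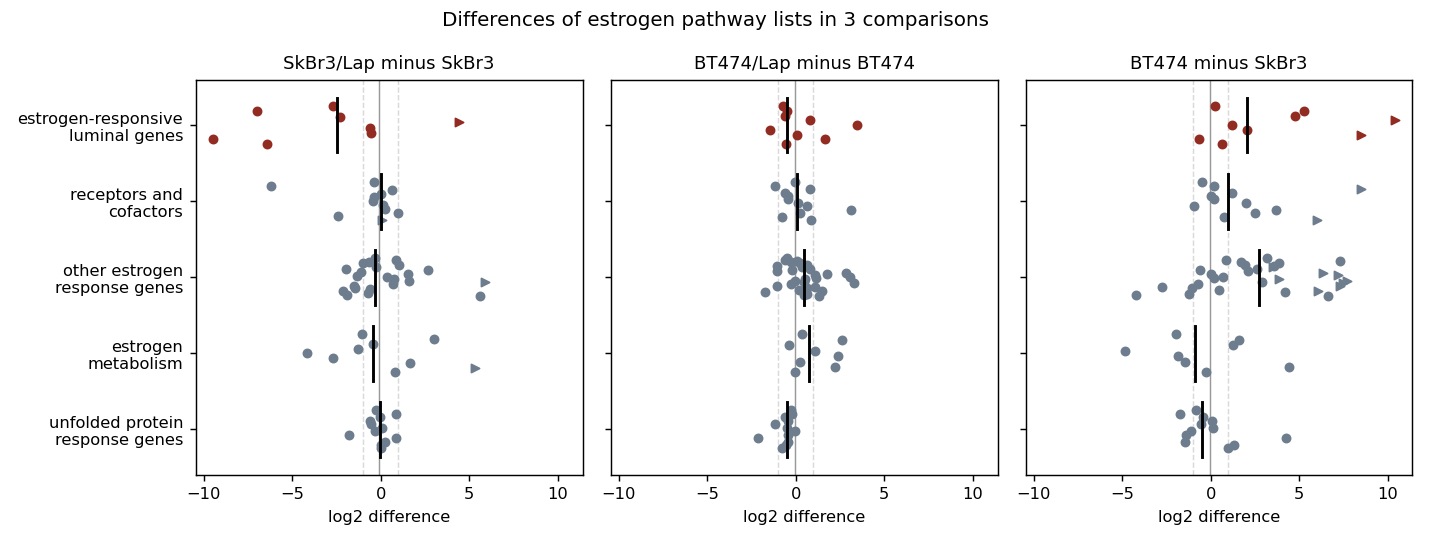
Log2 differences of the 10 genes and of 4 lists of related genes in the 3 comparisons. Each point is a gene, triangles are limits, black bars are list medians and dashed lines mark 2-fold. The bar of the estrogen-responsive luminal genes lies at −2.48 in SkBr3/Lap, and those of the other lists lie between −0.42 and 0.026.

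Genes that make or remove estrogens gave mixed values. HSD17B1, which forms estradiol from estrone, was at 1.23 in SkBr3 and −2.94 in SkBr3/Lap, against −0.59 in BT474 and 1.78 in BT474/Lap. It was 18.0-fold lower in SkBr3/Lap than in SkBr3 but 5.17-fold higher in BT474/Lap than in BT474, and its other probe gave log2 differences of −3.53 and 3.11. STS, the steroid sulfatase that frees estrone from its sulfate, was higher in both clones, 8.07-fold in the SkBr3 clone and 6.05-fold in the BT474 clone, with levels of −4.16 in SkBr3 and −1.14 in SkBr3/Lap, against −2.55 in BT474 and 0.05 in BT474/Lap. CYP1A1, which hydroxylates estradiol, was at −2.68, −1.04, 1.75 and 3.95 and was 3.13-fold and 4.59-fold higher in the clones. HSD17B2, which oxidizes estradiol to estrone, was at −0.73, −2.01, −5.54 and −4.43, 2.43-fold lower in SkBr3/Lap but 2.16-fold higher in BT474/Lap, the latter falling to 0.33 on the log2 scale under another scaling. CYP19A1, the aromatase gene, was chosen after its values were seen: it was well above background in SkBr3/Lap alone, at −0.78, at least 40.5-fold higher than in SkBr3. In all, 9 of 10 listed genes passed the filter, CYP19A1 only through SkBr3/Lap and HSD17B2 only through the SkBr3 cells. SkBr3/Lap had 3 higher and 4 lower of 9, against 12.6% and 14.5% of all probes, with a median of −0.42. BT474/Lap had 4 higher and 0 lower of 8, against 9.92% and 5.00% of all probes, with a median of 0.74. BT474 against SkBr3 had 3 higher and 4 lower of 8, against 19.2% and 19.4% of all probes, with a median of −0.86.

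Known targets of XBP1 are among the unfolded protein response genes, of which 12 of 13 passed the filter. In SkBr3/Lap 0 were higher and 1 was lower, against 12.6% and 14.5% of all probes, and the median log2 difference was −0.02. The lower gene was DNAJB9, an XBP1 target and chaperone of the HSP40 family, at 3.48-fold. A link between these genes and the level of XBP1 was not tested. SDF2L1 and CRELD2, both proteins of the endoplasmic reticulum, differed by 0.89 and 0.23. Other scalings put up to 2 genes past 2-fold higher, SDF2L1 at up to 1.57 and DDIT3 at up to 1.02. In BT474/Lap 0 were higher and 2 lower, against 9.92% and 5.00% of all probes, with a median of −0.48. DDIT3, the stress factor CHOP, was 4.31-fold lower, and HYOU1 was at −1.16. In BT474 against SkBr3 2 of 12 were higher and 4 lower, against 19.2% and 19.4% of all probes, with a median of −0.48. DDIT3 was 19.5-fold higher in BT474.

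Relatives and chromosomal neighbors of the genes were read for comparison. TFF2 lies between TFF1 and TFF3 on chromosome 21 with no other protein-coding gene between them, and was at −3.28 in SkBr3 and −4.63 in SkBr3/Lap, against −2.13 in BT474 and −2.07 in BT474/Lap, a difference of −1.35 in SkBr3/Lap that fell short of 2-fold under another scaling (−0.72). AGR3, the neighbor of AGR2 on chromosome 7, was not well above background in the SkBr3 cells and was at −0.50 in BT474 and −1.12 in BT474/Lap. CA2, a cytosolic carbonic anhydrase, was 11.2-fold higher in BT474/Lap, where CA12 was 3.10-fold higher, and differed by 0.83 in SkBr3/Lap, where CA12 fell. MYBL2, a paralog of MYB, differed by 0.10 and 0.00 in the clones and was 4.21-fold lower in BT474 than in SkBr3. PDZK1IP1, whose protein binds PDZK1, differed by −0.63 in SkBr3/Lap and was not well above background in the BT474 cells. Of 10 listed relatives 9 had a probe and 5 passed the filter, AGR3 and CA2 only through the BT474 cells and PDZK1IP1 only through the SkBr3 cells. In SkBr3/Lap 0 of the 4 compared were higher and 1 lower, against 12.6% and 14.5% of all probes. In BT474/Lap 1 of 4 was higher and 0 lower, against 9.92% and 5.00% of all probes. In BT474 against SkBr3 3 of 5 were higher and 2 lower, against 19.2% and 19.4% of all probes. After normexp with quantile normalization 1 of 5 was higher, with TFF2 at 0.84 and CA2 at 0.98.

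Markers of cell type were read on the same arrays. Of 8 luminal epithelial markers, 7 were well above background in the SkBr3 cells and 8 in the BT474 cells, and CDH1, the gene of E-cadherin, was the one not well above background in SkBr3 and SkBr3/Lap. Their summed linear level, in multiples of the 75th percentile, was 613 in SkBr3 and 444 in SkBr3/Lap, against 537 in BT474 and 367 in BT474/Lap. These sums depend on the scaling and rest mostly on KRT19, KRT18 and KRT8, at log2 levels of 8.05, 7.37 and 7.07 in SkBr3. Across the 5 scalings KRT19 differed by −0.85 to −0.02 in SkBr3/Lap and by −0.86 to −0.12 in BT474/Lap. For KRT18 these ranges were −0.16 to 0.60 and −0.56 to 0.07, and for KRT8 −0.47 to 0.06 and −0.84 to −0.24. In SkBr3/Lap 0 of the 7 markers compared were at least 2-fold lower and 1, the mucin gene MUC1, was higher by 1.17 on the log2 scale. In BT474/Lap 0 of 8 were higher and 1 was lower, again MUC1 at −1.36, and 2 were lower with scaling on array medians. Of the basal markers in SkBr3/Lap, 4 of 5 were at least 2-fold higher. The log2 differences were 5.45 for KRT17, 4.09 for KRT14 and 3.70 for TP63, with a limit of at least 14.3-fold for KRT5. Across the 5 scalings the lowest values of the 3 differences were 4.16, 3.18 and 2.05. The level of TP63 in SkBr3 (−5.96) was near the lowest one marked on that array (−6.12). The summed level of the basal markers was 0.117 in SkBr3 and 2.66 in SkBr3/Lap, against 3.05 in BT474 and 4.22 in BT474/Lap. In BT474/Lap 2 of the 4 compared were higher, KRT14, which was at −3.47 in BT474 and −1.97 in BT474/Lap, and KRT17, with a limit of 1.97 on the log2 scale that fell short of 2-fold (0.65) after normexp with quantile normalization. The summed level of the 6 matched of 7 mesenchymal markers was 6.84 in SkBr3 and 2.18 in SkBr3/Lap, against 16.8 in BT474 and 5.97 in BT474/Lap. Their single genes went both ways in SkBr3/Lap, where FN1 was lower at −1.86 but 2 of the 4 compared were higher, VIM at 1.76 (0.93 after normexp with quantile normalization) and COL3A1 at least 11.7-fold. In BT474/Lap 0 of 3 were higher and 1, VIM at −1.52, was lower. The summed level of 5 leukocyte markers ranged from 0.0715 to 0.771, with PTPRC not well above background on all 4 arrays, and that of 3 endothelial markers from 0.162 to 0.781. Of the endothelial markers 2 were higher in SkBr3/Lap, CDH5 8.43-fold and PECAM1 at least 5.38-fold, and 0 were lower. Like KRT5 and COL3A1, PECAM1 passed the filter only through SkBr3/Lap. Of the 3 leukocyte markers compared there, 1 was higher and 1 lower. Of all probes, 12.6% were higher and 14.5% lower in SkBr3/Lap, and 9.92% and 5.00% in BT474/Lap. The part of these markers in the differences above was not tested.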

How the data were processed

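The authors deposited, for each of the 4 samples, scanner output with the processed signal of each spot, an intensity on a linear scale with the background subtracted by Feature Extraction and no scaling between arrays, besides median pixel intensities and flags. Per the file headers, version 10.1.1.1 was used with 1 Cy3 channel, while the study's methods give an earlier version, Cy3 or Cy5 and LOWESS. The authors also deposited a log2 table whose column medians were 0.12 for SkBr3, −0.20 for SkBr3/Lap, 0.11 for BT474 and −0.05 for BT474/Lap. After removal of a constant, its differences between samples matched the processed signals to within 2.94e-07 (median, largest of 3 comparisons) and 0.617 (maximum), so its scale and direction are known and its centering is not stated. Tables of the authors' own fold changes were not used.

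Log2 signals were averaged over the spots of a probe and scaled to the 75th percentile of the 41000 non-control probes of the array. That percentile was 1115 to 2074, the 264 probes spotted 10 times had a median SD of 0.075 to 0.081, and no spot was saturated. The number of arrays limits the precision. Probes with a signal of at least 100 on 1 array were kept. A probe was well above background when at least 50% of its spots were marked so, and otherwise the higher of its signal and the lowest marked signal of that array (13.3 to 16.0) stood for it, which gives a limit. Accessions were named through RefSeq GRCh38.p14 (23680 probes, 16422 genes), and a gene was represented by the brightest of its kept probes on average. Genes at least 2-fold apart were counted.

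The 10 genes are all named. Of each list, ESR1, ESR2, PGR, FOXA1, GATA3 and at most 4 genes with the largest measured difference are named, and the others because a count was 5 or fewer. One gene of the lists is not reported here and was left out of their counts. Members and lists were chosen with earlier results of these data known. Alternatives were 4 other scalings (the percentile over probes well above background, the median, quantile normalization, normexp with offset 50 on median pixel intensities and quantile normalization), the deposited table, 16 added to the signal, no filter, probes well above background on all arrays, outlier spots left out, the mean over probes and a 3-fold threshold. Applying the scalings to the lists was added after the data were seen. The scripts were tested on simulated data. Python 3.11.15, numpy 2.4.6, pandas 2.3.3, matplotlib 3.10.9, R 4.3.3 and limma 3.58.1 (normexp) were used.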

Additional observations from a re-analysis of the deposited data

Results flagged for a closer look

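With the markers of cell type left out, some of the named genes moved in opposite directions from parent to clone, with at least 1 difference past 2-fold. Genes of the lists were mostly named for their large differences, so the number that did so is not read as a result. Among the markers, MUC1 (1.17 for the SkBr3 clone, −1.36 for the BT474 clone), VIM (1.76 and −1.52) and the endothelial VWF (0.53 and −1.12) did so too. No share of all probes under the same rule is given for comparison. Whether the clones differ was not tested, and there is 1 array behind each value. CA12 had a log2 difference of −9.45 in SkBr3/Lap and of 1.63 in BT474/Lap, and its other probe gave a limit of at least 307-fold lower and 1.70. PDZK1 was at −0.63 and 3.48. HSD17B1 was at −4.17 and 2.37, with −3.53 and 3.11 by its other probe. HSD17B2 was at −1.28 and 1.11, and ADORA1 at −1.91 and 0.49. DDIT3 was at 0.86 in SkBr3/Lap and −2.11 in BT474/Lap. TFF2 was at −1.35 and 0.06, and the latter changed sign under another scaling, with a lowest value of −0.15.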

How the results depend on the processing

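Of the 26 differences of the genes, 24 stayed on the same side of 2-fold under each alternative that gave a value. The exceptions were STC2 in BT474/Lap (0.79, and 1.04 after quantile normalization) and PDZK1 in BT474 against SkBr3 (1.23, and 0.89 after normexp with quantile normalization). Leaving out the filter could not change these values, since the same probes stand for the genes. Among differences past 2-fold, 0 turned direction under an alternative. Smaller differences did turn in BT474/Lap, where TFF3 (−0.46) reached 0.056 and GREB1 (0.07) reached −0.13. In SkBr3/Lap the values ranged from −9.49 to −7.46 for CA12, −6.99 to −5.66 for TFF3, −6.45 to −5.98 for AGR2, −2.77 to −2.40 for XBP1 and −2.90 to −2.12 for TFF1. The median over the genes in BT474/Lap was −0.67 with scaling on array medians, −0.043 after quantile normalization and 0.056 after normexp with quantile normalization. That in SkBr3/Lap was −2.27 after normexp with quantile normalization and −2.77 with the probes of each gene averaged. With probes well above background on all arrays, STC2 dropped out, so that 0 genes were higher in SkBr3/Lap, and the median in BT474 against SkBr3 was 1.65. At 3-fold, 0 genes were lower in BT474/Lap, since MYB was 2.69-fold lower. Scaling on array medians shifted the median of all probes from −0.09 to 0.07 in SkBr3/Lap. In BT474/Lap it moved from −0.04 to −0.25. The cause of these shifts was not tested. No paired analysis was possible because each comparison within a line sets 1 array against 1, and a model over both lines with the line as a block was not run. Limits for GREB1, STC2 and SCUBE2 depend on the lowest signal that the software marks and on how dim signals are treated. After normexp with quantile normalization and with 16 added to the signal, they were 3.01 and 3.48 for STC2 in SkBr3/Lap (4.43 as reported), and in BT474 against SkBr3 8.73 and 9.41 for STC2 (10.41) and 6.82 and 7.49 for GREB1 (8.49). The dimmest signals, such as that of ESR1 in SkBr3/Lap, lie near background and carry the least precise differences.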
